A study of Mus musculus with 8 samples.

Results

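Genes of extracellular nucleotide breakdown and of nucleotide and adenosine sensing were described in sorted endothelial cells of the mouse colon. The set names 9 genes: the ectonucleotidases Entpd1, Entpd2 and Nt5e, the deaminase Ada, the adenosine receptors Adora2a and Adora2b, and the ATP and ADP receptors P2ry1, P2ry2 and P2rx4. They were picked by name from this pathway and were chosen with the difference between the cell types already seen, on the log2 signals of the same 8 arrays, so their values are given as a description without a p-value. Every probe set annotated to exactly 1 of these symbols was taken. Values were found for 7 of the 9 genes, through 14 of the 34945 probe sets that carry 1 gene name, among 18193 named genes in all. Signals of Adora2a and Adora2b were not analysed here.

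Lymphatic endothelial cells (LEC) were set against blood vascular endothelial cells (BEC). Both came from the same 4 healthy C57BL/6J mice, 3 female and 1 male (mouse 4), aged 8 weeks, which gave 4 arrays of each, with replicate numbers naming the mouse. The labels name no transgene, other allele or agent given to the mice. The stains used in the sort were against podoplanin, CD31 and CD45.2, the RNA was amplified before hybridisation, and the 4 pairs were picked for the quality of that material, so an array reflects the sorted gate and whatever else it held.

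Cells release ATP, and the ectonucleotidases at the cell surface take it apart in steps. NTPDase1 (Entpd1, CD39) removes phosphates from ATP and ADP down to AMP, NTPDase2 (Entpd2) mainly turns ATP into ADP, and 5'-nucleotidase (Nt5e, CD73) turns AMP into adenosine, which adenosine deaminase (Ada) converts to inosine. ATP and ADP act on P2X channels and P2Y receptors and adenosine acts on its own receptors, and on blood vessels this balance is known to bear on platelet aggregation, vessel tone and leakage.

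Entpd1 and Entpd2 were the members whose groups did not overlap, in opposite directions, so the 250 bases upstream of their annotated starts are shown, from RefSeq on GRCm38.p6, read 5' to 3' on the plus strand. Capitals mark GGAA or its reverse complement, the core that ETS factors bind, a family with many members in endothelium. Entpd1 has starts at more than 1 place in that table, and both are given.

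Entpd1, chr19:40612116-40612365: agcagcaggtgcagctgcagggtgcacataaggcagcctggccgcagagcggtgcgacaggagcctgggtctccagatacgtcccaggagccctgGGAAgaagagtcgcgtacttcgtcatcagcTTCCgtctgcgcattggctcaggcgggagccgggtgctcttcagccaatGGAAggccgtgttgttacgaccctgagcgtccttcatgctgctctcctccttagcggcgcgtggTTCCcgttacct
Entpd1, chr19:40659520-40659769: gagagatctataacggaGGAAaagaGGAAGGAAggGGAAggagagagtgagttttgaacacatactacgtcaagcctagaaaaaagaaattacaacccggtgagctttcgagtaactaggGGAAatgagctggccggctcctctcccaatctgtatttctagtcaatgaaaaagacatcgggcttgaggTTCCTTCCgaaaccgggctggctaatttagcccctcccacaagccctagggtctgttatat
Entpd2, chr2:25395624-25395873: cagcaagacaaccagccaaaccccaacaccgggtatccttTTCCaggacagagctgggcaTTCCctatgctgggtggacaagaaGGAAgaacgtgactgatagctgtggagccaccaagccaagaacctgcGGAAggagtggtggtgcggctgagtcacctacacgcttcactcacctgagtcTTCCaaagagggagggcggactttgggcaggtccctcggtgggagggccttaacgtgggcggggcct

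The Entpd1 windows held 4 and 7 GGAA matches on the 2 strands together, in the order shown, and the Entpd2 window held 5. Of all 32851 windows of this length, 93.4% held at least 1, so a match was common. The Entpd2 window also held 2 matches to the GC box GGGCGG and 2 to ACGTG, the core of hypoxia response elements, which occurred in 32.7% and 16.6% of all windows. Neither Entpd1 window held those letters. The cAMP response element TGACGTCA, present in 1.55% of all windows, was in none of the windows of the members found in that table. Windows were found in the table for 8 members, Adora2b among them, 10 in all. Both strands were read for each of these 4 motifs, and a match describes letters only.

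The labels were read against markers first. The 6 lymphatic markers measured, among them Prox1, Lyve1 and Flt4, were above background on all 4 LEC arrays, with summed linear signals of 41230 to 68180 in LEC and 1802 to 2896 in BEC. Flt4 was bright in BEC too (10.73 to 11.42 on the log2 scale, against 13.16 to 13.81 in LEC). The list also holds the podoplanin gene Pdpn, whose protein was stained in the sort. The 9 blood vascular markers, among them Vwf and Flt1, were above background on all 4 BEC arrays and summed to 2090 to 4321 in LEC and 21020 to 29930 in BEC. Of these, Emcn alone overlapped between the groups (10.72 to 11.87 in LEC, 11.65 to 12.49 in BEC, log2). Background here is the 95th percentile of 27 bacterial control probe sets on each array, between 3.43 and 4.88 on the log2 scale. It was 3.83 to 4.88 on the LEC arrays and 3.43 to 4.52 on the BEC arrays. Markers of other cells were present on some arrays. Fibroblast markers (8 measured) summed to 432 to 9596 in LEC, highest in replicates 2 and 4, and to 231.9 to 388.3 in BEC. Epithelial markers (9 measured) summed to 5351 in LEC replicate 3, 9758 in BEC replicate 3 and 4511 in BEC replicate 4, against 208.8 to 291.3 on the other LEC arrays and 381.4 and 458.1 on the other BEC arrays. The sums of the leukocyte markers (204.2 to 421.7 in LEC, 166.2 to 309.5 in BEC), of the pericyte and smooth muscle markers (739.6 to 1430 in LEC, 1116 to 1773 in BEC) and of the glial and neuronal markers (110.2 to 291.1 in LEC, 128.7 to 249.6 in BEC) overlapped. So did those of platelets and red cells (66.35 to 569.5 in LEC, 27.32 to 143.0 in BEC).

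Entpd1 was bright in BEC and at or near background in LEC on each of its 3 probe sets. On the brightest, 1450939_at, the log2 signal was 0.70, 1.54, 1.11 and 4.26 in LEC replicates 1 to 4 and 11.84, 11.23, 12.43 and 11.65 in BEC replicates 1 to 4. Only LEC replicate 4 lay above the background of its array, and the groups stood 6.97 apart at their nearest values. The means were 1.90 ± 1.61 in LEC and 11.79 ± 0.50 in BEC (SD, n = 4 each), a difference of -9.89 ± 0.84 (SE). The SE of each member difference treats LEC and BEC as unpaired, although they came from the same mice. Counting LEC values below background as background, Entpd1 was at least 177-fold lower in LEC on this probe set. These are bulk samples, in which fewer cells of a kind with the transcript and less of it per cell cannot be told apart.

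The other Entpd1 probe sets gave the same direction. On 1453586_at LEC read 2.80, 2.33, -0.10 and 2.04 and BEC read 9.38, 9.49, 9.09 and 8.92, a difference of -7.45 ± 0.66 (SE) and at least 31.2-fold. On 1423326_at LEC read 4.26, 4.03, 3.23 and 3.79 and BEC read 7.83, 8.95, 7.45 and 8.18, a difference of -4.28 ± 0.39 (SE) and at least 14.4-fold. All 4 LEC arrays were below background on both of these probe sets and all 4 BEC arrays above it. The spread of BEC values over mice was small beside the difference, with SDs of 0.26 to 0.64 over the 3 probe sets. With LEC at or below background, the bounds of 14.4-fold to 177-fold follow how bright each probe set was in BEC and do not order the probe sets by the size of their contrast. The difference was negative in all 4 mice on each.

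**Figure D1:**
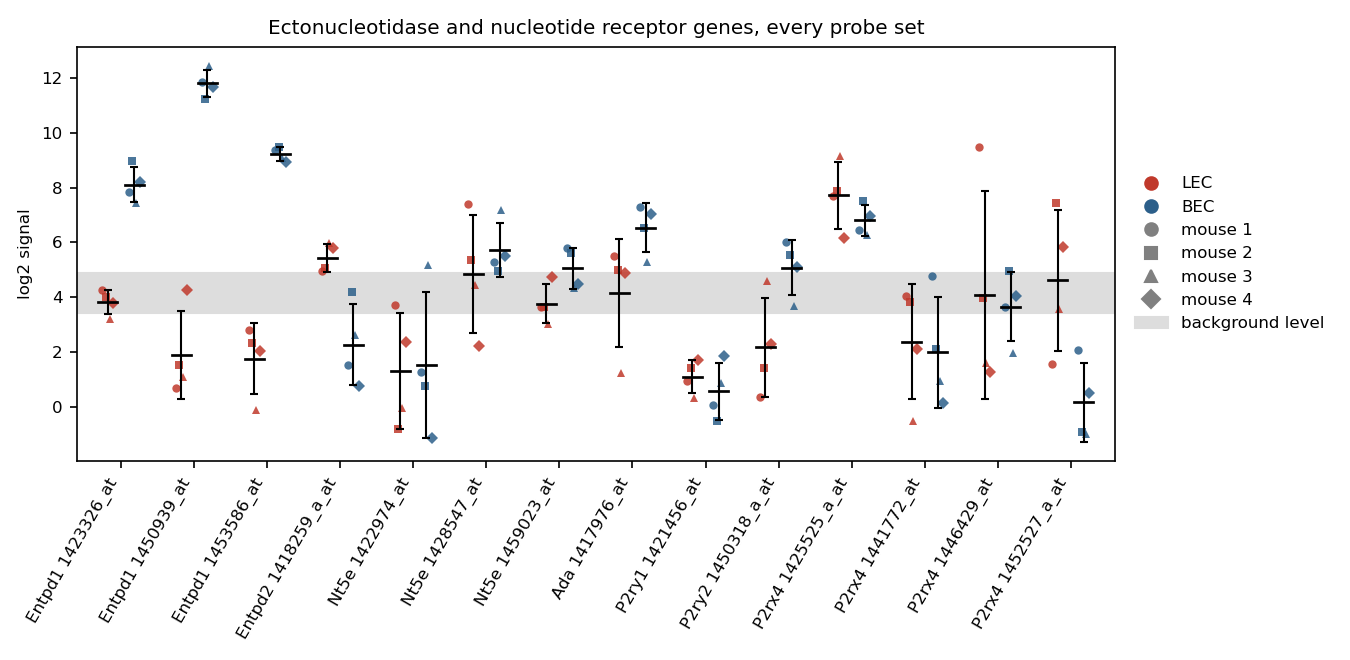
Log2 signal (vertical axis) of every probe set of the 7 members with values, LEC in red left of BEC in blue, 1 point per array with the marker shape giving the mouse, bars showing mean and SD (n = 4), and the grey band the range of background levels (3.43 to 4.88). The 3 Entpd1 probe sets are the only ones with all BEC arrays above all LEC arrays, and Entpd2 the only one with all LEC arrays above all BEC arrays.

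Entpd2 ran the other way. Its probe set 1418259_a_at read 4.95, 5.05, 5.96 and 5.81 in LEC replicates 1 to 4 and 1.52, 4.19, 2.62 and 0.78 in BEC replicates 1 to 4. All LEC arrays lay above background, LEC replicate 1 only narrowly (4.95 against 4.88), and of the BEC arrays only replicate 2 did, so the groups were apart by 0.76. The means were 5.44 ± 0.52 in LEC and 2.28 ± 1.48 in BEC (SD, n = 4 each), a difference of 3.16 ± 0.78 (SE) and at least 2.93-fold higher in LEC once BEC values were raised to background. Without BEC replicate 2 the difference was 3.80. The summed fibroblast markers were also higher in LEC than in BEC without overlap, and their part in the Entpd2 difference was not tested. Entpd2 was 4.95 and 5.96 on LEC replicates 1 and 3, which had the lowest fibroblast sums in LEC (432.0 and 922.5), and 5.05 and 5.81 on replicates 2 and 4, which had the highest (9596 and 5534).

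Nt5e, which completes the path to adenosine, was dim and variable, and the groups overlapped on all 3 of its probe sets. On 1428547_at, the brightest, LEC read 7.39, 5.38, 4.44 and 2.22 and BEC read 5.30, 4.96, 7.17 and 5.51. The difference of -0.88 ± 1.18 (SE) was smaller than the SD within LEC (2.15). LEC was higher in 2 mice and lower in 2, and the difference was -1.73 without LEC replicate 1, -0.0002 without LEC replicate 4, and 0.18 without the 2 LEC arrays of highest fibroblast sums. On 1459023_at LEC read 3.66, 3.66, 3.04 and 4.73 and BEC read 5.78, 5.61, 4.35 and 4.49, a difference of -1.29 ± 0.51 (SE) with all BEC arrays and 1 LEC array above background. The third, 1422974_at, was above background on 1 of 8 arrays (BEC replicate 3, 5.19) and did not pass the filter on low values.

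Ada, which removes adenosine, was lower in LEC than in BEC of the same mouse in all 4 mice, although the groups overlapped slightly. Its probe set 1417976_at read 5.50, 5.00, 1.25 and 4.87 in LEC replicates 1 to 4 and 7.28, 6.53, 5.27 and 7.03 in BEC replicates 1 to 4. The overlap came from LEC replicate 1 and BEC replicate 3, which differed by 0.23. The means were 4.16 ± 1.96 in LEC and 6.53 ± 0.89 in BEC (SD, n = 4 each), a difference of -2.37 ± 1.07 (unpaired SE) and at least 3.31-fold lower in LEC. Between cells of the same mouse the differences ran from -4.02 to -1.53. LEC replicate 3 stood far below the other LEC arrays, and without it the difference was -1.40.

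**Figure D2:**
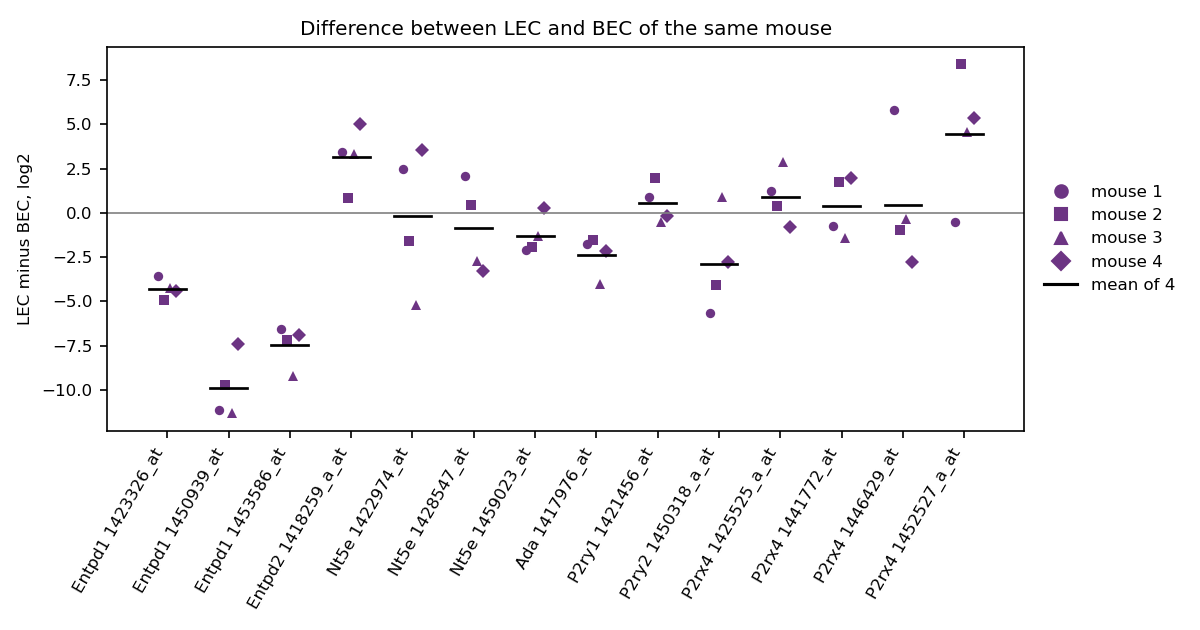
Difference in log2 signal between LEC and BEC of the same mouse (vertical axis, LEC minus BEC) for every probe set of the 7 members, 1 point per mouse and a line at the mean of 4. All 4 mice lie below 0 for the 3 Entpd1 probe sets and for Ada and above 0 for Entpd2, and the mice fall on both sides of 0 for the other 9 probe sets.

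Among the nucleotide receptors, P2ry2, which ATP and UTP activate, was above background on all BEC arrays and on 1 LEC array. BEC replicate 3 was above it only narrowly (3.68 against 3.43). Its probe set 1450318_a_at read 0.38, 1.44, 4.59 and 2.30 in LEC and 6.01, 5.54, 3.68 and 5.09 in BEC, with means of 2.18 ± 1.79 in LEC and 5.08 ± 1.007 in BEC (SD, n = 4 each). In mouse 3 the order was turned round (4.59 in LEC, 3.68 in BEC), and those arrays are among the 3 with bright epithelial markers. With LEC values below background raised to it, P2ry2 was at least 1.55-fold lower in LEC. On the deposited signals the difference was -2.90 ± 1.03 (unpaired SE), and between cells of the same mouse it ran from -5.63 to 0.91. It was -2.31 without LEC replicate 1, -3.71 without LEC replicate 3, and -4.40 without the 3 arrays with bright epithelial markers. The part of epithelial RNA in this difference was not tested.

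P2ry1, the ADP receptor best known from platelets, was not above background on any array. Its probe set 1421456_at read 0.97, 1.44, 0.35 and 1.72 in LEC and 0.09, -0.50, 0.87 and 1.88 in BEC, and it was the member gene that the filter on low values left out. A value under background does not show that the transcript was absent.

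P2rx4, an ATP-gated cation channel known from endothelium for its part in the response to flow, was the member measured above background on all 8 arrays. Its brightest probe set, 1425525_a_at, read 7.69, 7.89, 9.13 and 6.15 in LEC and 6.46, 7.53, 6.27 and 6.95 in BEC. The groups overlapped, the difference of 0.91 ± 0.67 (SE) was smaller than the SD within LEC (1.22), and LEC was higher in 3 of 4 mice. On 1452527_a_at LEC read 1.57, 7.45, 3.59 and 5.85 and BEC read 2.08, -0.92, -0.97 and 0.51, so that LEC replicates 2 and 4 were above background and no BEC array was. These are the 2 LEC arrays of highest fibroblast sums (9596 and 5534), and the part of fibroblast RNA in this signal was not tested. On 1446429_at LEC replicate 1 alone read 9.49, while the other 7 arrays lay between 1.28 and 4.95. The remaining probe set, 1441772_at, which like 1452527_a_at did not pass the filter on low values, ranged from -0.48 to 4.78 with 1 array above background. The P2rx4 probe sets therefore ranked the arrays differently, and none of the 4 kept the groups apart.

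Over the 7 genes, with the brightest probe set standing for each, all LEC arrays lay above all BEC arrays for 1 (Entpd2) and all BEC arrays above all LEC arrays for 1 (Entpd1). Over the 18193 named genes treated alike, these shares were 4.6% and 3.92%. Of the 6 members that passed the filter on low values (above the 40th percentile of the array on at least 4 arrays), limma placed 1, Entpd1, past an adjusted p of 0.05 and lower in LEC, and 0 higher. In that fit 2.31% of the 13259 genes were lower and 1.76% higher in LEC. The members were chosen knowing this contrast, so nothing is read from these counts. On the deposited signals, in which 3 of the 4 LEC values of Entpd1 were below background, Entpd1 had the lowest difference of all 13259 genes. With values raised to background its difference was -7.46 in place of -9.89, and its rank was not computed on that scale. On the deposited signals 256 genes had a higher difference than Entpd2, 362 a lower one than P2ry2 and 567 a lower one than Ada. Nt5e and P2rx4 lay well inside, at the 19.33 and 77.89 percentiles.

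**Figure D3:**
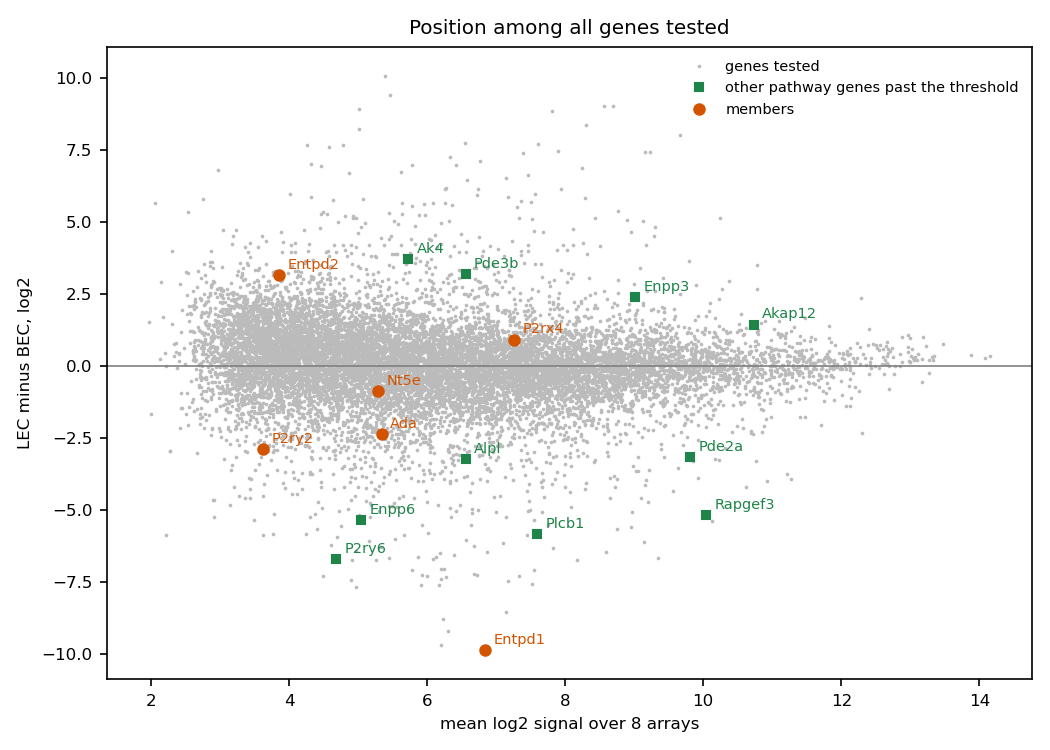
Difference LEC minus BEC (vertical axis, log2) against the mean log2 signal over the 8 arrays (horizontal axis) for the 13259 genes tested in grey, with the 6 members that passed the filter in orange and the other pathway genes past the threshold in green. Entpd1 lies at the lower edge at -9.89, Nt5e and P2rx4 lie within the cloud, and Entpd2, Ada and P2ry2 lie towards its edges.

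The genes whose pattern over the 8 arrays was most like that of Entpd1, by the smallest root mean square difference of their deviations from their own means, were Col13a1 (1.64), Plscr2 (1.66), Lims2 (1.68), Endou (1.72) and Stk10 (1.79), against a median of 5.20 over all genes. Those most like Entpd2 were Ecm2 (0.56), Nr3c2 (0.57), Bdkrb1 (0.58), Slc13a5 (0.60) and Fmnl2 (0.71), against a median of 2.11. The distances include values below background, such as those of Slc13a5 on all 4 BEC arrays, describe the 8 arrays and are no test.

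The rest of the pathway was read from lists of 122 further genes, of which 108 had values and 90 passed the filter. Limma (two-sided, Benjamini-Hochberg over all 13259 genes) placed 4 higher and 6 lower in LEC, 11.1% of the 90, where 1.76% of all genes tested were higher and 2.31% lower, with a median difference of -0.17 against 0.08 over all genes tested. With equal array medians 1 was higher, with equal hybridisation controls or with the 2 LEC arrays of highest fibroblast sums left out 0 were, and without the 3 arrays with bright epithelial markers 2 were higher and 2 lower. Leaving out any 1 array gave 0 to 2 higher and 5 to 7 lower. The lists were chosen with earlier results of these data known, so nothing is read from these counts.

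Of the other nucleotide-splitting and related surface enzymes, 11 of 21 were tested, 1 was higher and 2 lower in LEC. Over all genes tested 1.76% were higher and 2.31% lower. Alpl, the tissue-nonspecific alkaline phosphatase, which can strip phosphate from ATP, ADP and AMP, read 5.29, 5.54, 4.92 and 4.01 in LEC and 9.39, 8.58, 7.16 and 7.58 in BEC. It was 9.44-fold lower in LEC with all arrays above background (logFC -3.24 ± 0.69, limma adjusted p = 0.0163), and leaving out BEC replicate 1 or 2 gave adjusted p-values of 0.0628 and 0.0698. Enpp6, a phosphodiesterase that acts on choline phospholipids rather than on nucleotides, read 4.12, 1.88, 1.78 and 1.69 in LEC and 6.65, 7.73, 8.93 and 7.60 in BEC, at least 11.1-fold lower in LEC (limma adjusted p = 0.00179). Its other probe set that passed the filter was also lower (-4.43, adjusted p = 0.00439 in limma's fit of single probe sets). On each of these Enpp6 probe sets all LEC arrays were below the filter level, so they passed it through the BEC arrays alone. Enpp3, an ectonucleotide pyrophosphatase that hydrolyses ATP, was bright in both cell types at 11.78, 9.64, 9.39 and 10.03 in LEC and 8.33, 8.42, 7.16 and 7.34 in BEC. It was 5.26-fold higher in LEC (logFC 2.40 ± 0.57, limma adjusted p = 0.0309). The 2 other probe sets that passed the filter gave larger differences (4.53 and 2.94), the first with only 2 BEC arrays above background. On 1425353_at (0.54) and 1427303_at (1.27), which did not pass the filter, the groups overlapped. The limma adjusted p of Enpp3 was 0.0504 to 0.0952 without LEC replicate 1 or 4 or BEC replicate 2, 3 or 4. Without the 3 arrays with bright epithelial markers, on 5 arrays, the differences were -4.04 for Alpl, -4.63 for Enpp6 and 2.10 for Enpp3, with limma adjusted p-values of 0.0647, 0.111 and 0.230. Without the 2 LEC arrays of highest fibroblast sums, on 6 arrays, they were -3.07 for Alpl and 2.77 for Enpp3, with limma adjusted p-values of 0.0906 and 0.0947. The Enpp3 call was also lost with equal hybridisation controls (limma adjusted p = 0.0893) and without an intensity trend (0.112).

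The other 8 did not pass the threshold. Among them Entpd5, an NTPDase of the endoplasmic reticulum that prefers UDP and GDP, averaged 6.44 ± 1.48 on the LEC arrays and 6.16 ± 1.31 on the BEC arrays (SD, n = 4 each).

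P2ry6, the Gq-coupled receptor for UDP, was lower in LEC. It read 2.59, -0.50, 2.44 and 0.79 in LEC and 8.24, 6.94, 7.56 and 9.42 in BEC. No LEC array and all BEC arrays were above background, and P2ry6 was at least 13.7-fold lower in LEC (logFC -6.71 ± 0.92, limma adjusted p = 7.26e-04). P2ry6 passed the filter on low values through the BEC arrays alone, the group in which it was bright. It had 1 probe set, and its limma adjusted p was 3.52e-04 to 0.0416 over the 19 alternatives that tested it. Those alternatives reuse the same arrays, so nothing further is read from that range. The P2ry6 difference was -6.10 without LEC replicate 2. Macrophages also express P2ry6, the sort used a CD45.2 stain, and the part of leukocyte RNA in the difference was not tested. The leukocyte sums are given above. Of the macrophage markers, Adgre1 was at 4.43 to 5.45 in LEC and -1.09 to 3.58 in BEC. Csf1r was at 2.33 to 5.06 in LEC and 3.54 to 5.20 in BEC. Cd68 (3.66 to 5.45 in LEC, 2.41 to 4.23 in BEC) and Lyz2 (4.99 to 6.32 in LEC, 2.03 to 5.51 in BEC) overlapped between the groups. So did Itgam, Itgax, Fcer1g and Tyrobp. The smooth muscle and pericyte genes Acta2 (3.39 to 5.88 in LEC, 6.45 to 7.89 in BEC) and Rgs5 (-0.97 to 5.55 in LEC, 9.04 to 10.04 in BEC) were higher in BEC, whereas the other 8 markers of that list overlapped between the groups, and their part in the BEC signals was not tested. P2ry6 was the 1 of 6 other P2Y-type genes that passed the filter. The rest (P2ry4, P2ry10, P2ry12 and P2ry13) were below background on all 8 arrays, except P2ry14, which was above it on LEC replicate 2 and BEC replicate 3.

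None of the 5 other P2X channels tested passed the threshold by limma, where 1.76% of all genes tested were higher and 2.31% lower. At an unadjusted limma p under 0.05 there was 1. P2rx7, the channel that opens at high ATP, was that 1: it read 4.43, 4.85, 4.51 and 5.17 in LEC and 7.87, 6.90, 7.80 and 5.53 in BEC, with the groups apart (logFC -2.28 ± 0.72, limma adjusted p = 0.114). A further probe set of it overlapped between groups (-2.61, adjusted p = 0.484 in limma's fit of single probe sets). P2rx1 (4.80 ± 0.94 in LEC, 3.57 ± 1.36 in BEC), P2rx2 (4.41 ± 1.37 in LEC, 2.70 ± 1.299 in BEC), P2rx5 (4.09 ± 0.97 in LEC, 2.61 ± 1.46 in BEC) and P2rx6 (4.28 ± 1.15 in LEC, 4.35 ± 1.27 in BEC; SD, n = 4 each) lay close to background with overlapping groups. P2rx3 was below background on all arrays. The adenosine A3 receptor gene Adora3 was 3.35 ± 1.71 in LEC and 3.78 ± 1.48 in BEC (logFC -0.44 ± 1.11, limma adjusted p = 0.914).

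**Figure D4:**
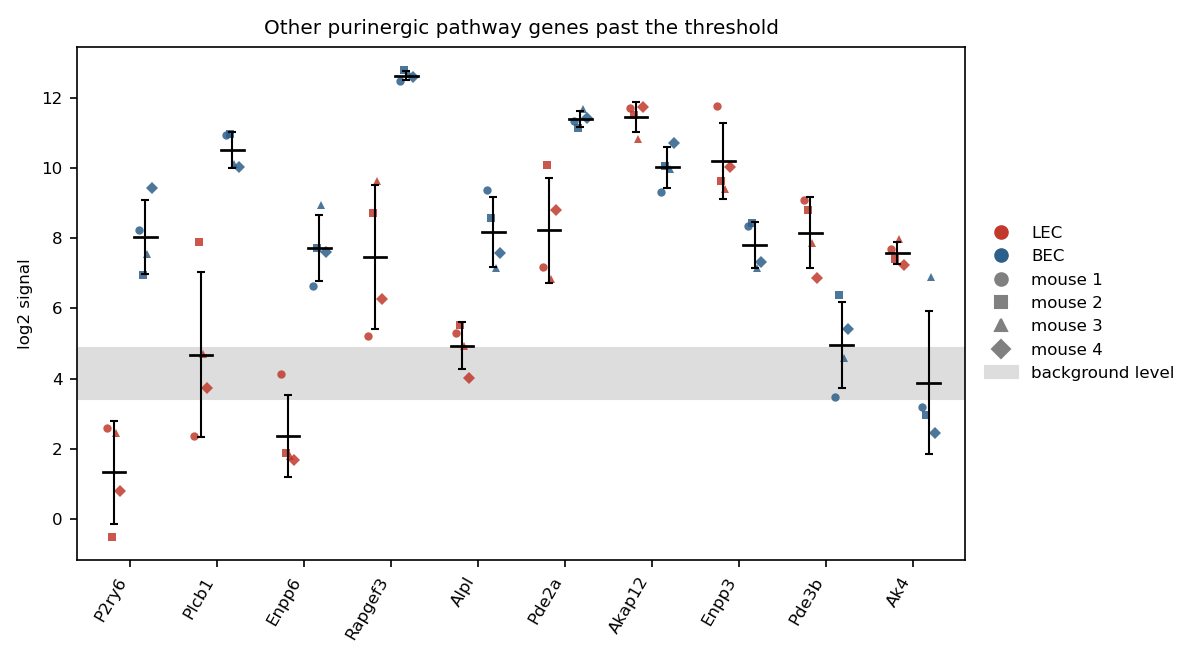
Log2 signal (vertical axis) of the 10 other pathway genes past the threshold, ordered from the lowest to the highest difference LEC minus BEC, LEC in red left of BEC in blue, 1 point per array with the marker shape giving the mouse, bars showing mean and SD (n = 4) and the grey band the range of background levels. The 6 genes on the left are lower in LEC and the 4 on the right higher, and for P2ry6 and Enpp6 all LEC points lie below the background of their arrays.

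Of 20 genes of adenosine uptake and turnover tested, 1 was higher and 0 lower in LEC, against 1.76% higher and 2.31% lower over all genes, and 4 had an unadjusted p under 0.05. The share of all genes under that unadjusted p was not computed. Besides Ak4 these were Nt5c (-2.24), Ampd3 (-1.83) and Ak1 (-2.68), lower in LEC and not called (limma adjusted p of 0.209 to 0.237). The median difference of the list was -0.38, against 0.08 over all genes tested. The gene called higher was Ak4, a mitochondrial adenylate kinase, which read 7.68, 7.40, 7.98 and 7.25 in LEC and 3.20, 2.97, 6.90 and 2.45 in BEC (at least 8.04-fold, limma adjusted p = 0.0395). BEC replicate 3 stood far above the other BEC arrays: without it the difference was 4.70 in place of 3.70, and without any other array the limma adjusted p was 0.0781 to 0.120. Neither of its 2 other probe sets that passed the filter was called, and the Ak4 call was lost with equal array medians (limma adjusted p = 0.0797), equal hybridisation controls (0.118) or the 2 LEC arrays of highest fibroblast sums left out (0.162, at a difference of 3.95). The nucleoside transporter gene Slc29a1 (ENT1) was 5.48 ± 1.05 in LEC and 4.11 ± 0.32 in BEC, and adenosine kinase (Adk) averaged 7.42 ± 0.94 on the LEC arrays and 5.56 ± 2.70 on the BEC arrays (SD, n = 4 each; limma adjusted p = 0.470 and 0.499). Of 7 genes linked to ATP release, 0 passed by limma and 1, Anxa2, had an unadjusted p under 0.05 (adjusted p = 0.0953). Pannexin 1 (Panx1) was 4.58 ± 2.09 in LEC and 6.28 ± 1.76 in BEC.

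Downstream of Gs-coupled adenosine receptors, 2 of 28 tested genes of cAMP signalling were higher and 2 lower in LEC. Over all genes tested 1.76% were higher and 2.31% lower. Rapgef3 (EPAC1), the cAMP-activated exchange factor for Rap1, read 5.22, 8.71, 9.62 and 6.28 in LEC and 12.48, 12.79, 12.69 and 12.59 in BEC. It was 36.2-fold lower in LEC (logFC -5.18 ± 0.76, limma adjusted p = 0.00121), with differences of -4.43 without LEC replicate 1 and -5.90 without LEC replicate 3, and 2 of its 3 other probe sets that passed the filter were called too. Pde2a, a cGMP-stimulated phosphodiesterase, was 8.22 ± 1.503 in LEC and 11.39 ± 0.22 in BEC, 9.0-fold lower in LEC (limma adjusted p = 0.00814, and a difference of -3.79 without LEC replicate 2), while another probe set gave -1.74 (limma adjusted p = 0.158). Pde3b, a cGMP-inhibited phosphodiesterase that degrades cAMP, read 9.08, 8.82, 7.86 and 6.85 in LEC and 3.47, 6.37, 4.58 and 5.43 in BEC, at least 7.62-fold higher in LEC (limma adjusted p = 0.0338). Blocking on the replicate number (the mouse), Pde3b had a limma adjusted p of 0.0601, and this was 0.0606 to 0.111 without LEC replicate 1, 2 or 3 or BEC replicate 1, 3 or 4. Akap12, a scaffold that anchors protein kinase A, averaged 11.45 ± 0.42 (SD) on the LEC arrays and 10.02 ± 0.58 on the BEC arrays, a 2.70-fold higher level in LEC (limma adjusted p = 0.0418). Its adjusted p was 0.0865 to 0.123 without LEC replicate 1, 2 or 4 or BEC replicate 1, 2 or 3. With equal array medians limma gave adjusted p-values of 0.0603 for Pde3b and 0.237 for Akap12, with equal hybridisation controls 0.150 and 0.450, and without the 2 LEC arrays of highest fibroblast sums 0.102 and 0.297, at differences of 3.51 and 1.26. Without the 3 arrays with bright epithelial markers they were 0.179 for Pde2a and 0.239 for Pde3b, at differences of -2.55 and 3.33.

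Downstream of Gq-coupled receptors such as P2ry1, P2ry2 and P2ry6, 1 of 17 tested genes was lower and 0 higher in LEC. Over all genes tested 2.31% were lower and 1.76% higher. Plcb1, a phospholipase C that Gq activates, read 2.37, 7.89, 4.71 and 3.74 in LEC and 10.94, 10.97, 10.12 and 10.04 in BEC, at least 35.5-fold lower in LEC (logFC -5.84 ± 0.94, limma adjusted p = 0.00231). LEC replicate 2 was the highest of the LEC arrays, and without it the difference was -6.91, against -5.07 without LEC replicate 1. Of its 4 other probe sets that passed the filter 3 were lower in LEC (-5.87 to -3.87), and 1425782_at, which read 11.60 in LEC replicate 1 and no more than 3.44 on the other LEC arrays, was not called (0.16). Among the lower ones, 1421170_a_at (-3.87) passed the filter through the BEC arrays alone. Without the 3 arrays with bright epithelial markers the limma adjusted p of Plcb1 was 0.0534, at a difference of -6.29.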

How the data were processed

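RNA of 4 LEC and 4 BEC samples was measured on 1 single-colour array each. The authors deposited log2 signals, and MAS5 is named per the submitters' processing notes. Read from the values, the signals were scaled to a 2% trimmed mean of 100.04 on each array. The MAS5 version was not given in sources used here, and detection calls were not used. Arrays carry no genome build. Their number limits precision.

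Names came from a 2016 platform annotation, updated by gene number: 34945 probe sets had 1 gene (34741 matched by number), 932 several and 9160 none, and 64 controls were left out. The background level, from control probe sets, was carried over from an earlier analysis of these data. Per gene, the probe set of highest mean was kept if above the 40th percentile on at least 4 of 8 arrays. Limma 3.58.1 (R 4.3.3; lmFit, eBayes with intensity trend) was fitted over 13259 genes with cell type as the only term. This fit was tested on simulated data, and the fits of the alternatives were not. A ratio reads "at least" where an array of the dimmer group was below background, with values raised to it.

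Members and lists were chosen with earlier results of these data known. The text names all members, called genes of the lists, all tested receptors and the 5 nearest patterns. Outside this rule, with values in view, were named the receptors that failed the filter (P2rx3, P2ry4, P2ry10, P2ry12, P2ry13 and P2ry14), Pdpn, Emcn, Adgre1, Csf1r, Cd68, Lyz2, Itgam, Itgax, Fcer1g, Tyrobp, Acta2, Rgs5, Entpd5, Nt5c, Ampd3, Ak1, Slc29a1, Adk, Anxa2 and Panx1. The series design pairs LEC and BEC by mouse, and same-mouse deviations correlated at 0.142, 0.0776, 0.181 and 0.0510. The highest correlations with another mouse were 0.0295, 0.0295, 0.0747 and 0.0747, so mouse 4 did not correlate best with itself. Alternatives covered scaling, filter, probe choice, variance model, pairing and left-out arrays.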

Additional observations from a re-analysis of the deposited data

Results flagged for a closer look

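Within groups of 4, the highest or lowest array stood apart by Dixon's criterion in 5 of 60 groups examined, and chance flags about 1 in 20 groups. Ada was 1.25 in LEC replicate 3, with the other LEC arrays between 4.87 and 5.50. Enpp6 was 4.12 in LEC replicate 1, with the other LEC arrays between 1.69 and 1.88. P2rx2 was 4.64 in BEC replicate 1, with the other BEC arrays between 1.88 and 2.15. Adora3 was 1.58 in BEC replicate 3, with the other BEC arrays between 4.36 and 4.69. Ak4 was 6.90 in BEC replicate 3, with the other BEC arrays between 2.45 and 3.20. Background was 4.88 on LEC replicate 1 and 4.52 on BEC replicate 1.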

How the results depend on the processing

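The pathway genes lower in LEC numbered 5 to 7 under the other alternatives run, and 2 without the 3 arrays with bright epithelial markers, a choice made after seeing the data like that of the 2 LEC arrays with bright fibroblast markers. Those higher numbered 1 with equal array medians, 0 with equal hybridisation controls or without an intensity trend, 2 and 0 without these epithelial or fibroblast arrays, and 0 to 2 when 1 array was left out. Over all genes, where 234 were higher and 306 lower, 162 were higher and 336 lower with equal medians, 123 were higher and 280 lower with equal hybridisation controls, 112 were higher and 104 lower without the epithelial arrays, 88 were higher without the fibroblast arrays, and leaving out 1 array gave 156 to 227 higher and 180 to 329 lower. Of the surface enzymes 0 and 1 were called without the epithelial and fibroblast arrays, and 1 to 3 when 1 array was left out. The uptake and turnover call (Ak4) was lost (0) with equal medians, equal hybridisation controls, the mean of probe sets, no trend or no fibroblast arrays, and leaving out 1 array gave 0 to 1. The cAMP list had 2 calls with equal medians, equal hybridisation controls or no epithelial arrays, 1 without trend, and 2 to 3 when 1 array was left out, and the Gq list had 0 without the epithelial arrays. With mouse as a replicate block, 236 genes were higher and 298 lower, 3 pathway genes were higher and 6 lower, and Pde3b was the only pathway gene named whose call changed. Without an intensity trend Pde2a missed the threshold (limma adjusted p = 0.0546). Scaling moved the median difference of all genes, 0.08 as deposited, to -0.20 with equal medians and -0.31 with equal hybridisation controls. For the members, raising values to background gave -7.46 for Entpd1, 1.55 for Entpd2 and -0.63 for P2ry2, the mean of probe sets gave -7.21 for Entpd1, and leaving out the epithelial arrays gave 1.58 for P2ry1 and -4.40 for P2ry2. Leaving out 1 array gave -10.67 to -9.48 for Entpd1, 2.67 to 3.80 for Entpd2, -2.82 to -1.40 for Ada and -3.71 to -2.31 for P2ry2. The causes of these shifts were not tested. Where arrays were left out, the smaller number of arrays cannot be told apart from what those arrays held. Values near background limit Nt5e, P2ry1 and most P2X genes.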
